A study of Mus musculus with 8 samples.

Results

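The genes described here encode the nuclear machinery through which a cleaved Notch receptor acts on chromatin. They were the rows of the count files whose symbol is Rbpj, Maml1, Maml2, Maml3, Ep300, Crebbp, Spen, Hdac1 or Fbxw7, which gave 9 genes of the 23284 symbols listed. The libraries came from ID8 IP2, a line of mouse ovarian surface epithelial origin that had been passaged through mice. Control cells carried the empty pCCL lentiviral vector, and Notch3IC cells carried the same vector with an HA-tagged Notch3 intracellular domain followed by an IRES-GFP. Each group held 4 libraries, 1 from each of the matched Sets 1 to 4, which were separate infections. By the study's methods all of these cells also carried a luciferase-mCherry lentivirus. Tests made after the work found signs of mycoplasma in all the lines. Whether a line was a clone or a pool of infected cells is not given in the sources used here, and p-values measure the spread between these 4 lines per group. In total counts, Control Sets 1 to 4 held 24910528, 19013578, 23601232 and 28208072, and Notch3IC Sets 1 to 4 held 22980440, 15524262, 25344051 and 27107061.

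Without a Notch signal, Rbpj, the DNA-binding protein of the pathway, sits at target genes with corepressors such as Spen and histone deacetylases such as Hdac1. After cleavage the Notch intracellular domain enters the nucleus, binds Rbpj and with it forms a groove in which a Mastermind-like protein (Maml1, Maml2 or Maml3) docks, and Mastermind recruits the acetyltransferases Ep300 and Crebbp. The intracellular domain is then phosphorylated and handed to Fbxw7, the substrate-binding part of a ubiquitin ligase that ends the signal. The comparison asked whether a constant supply of active Notch3 was accompanied by a change in the transcripts of this machinery.

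None of the 9 genes was called changed in Notch3IC, where a call in edgeR's quasi-likelihood test over 12430 genes needed both an adjusted p below 0.1 and an absolute log2 fold change of 1 or more. Of all genes tested, 515 were called (4.14%). Without the limit on fold change 1 of the 9 passed, against 832 of the genes tested (6.69%). That gene was Maml2, a Mastermind-like coactivator, which rose 1.35-fold. The same gene was the only one of the 9 with an unadjusted p under 0.05, against 18.4% of all genes tested, and DESeq2 called none of the 9 and passed Maml2 alone without the fold limit (12.9% of all genes with a DESeq2 adjusted p passed). The log2 fold changes of the 9 ran from -0.12 for Spen to 0.45 for Maml3, with a median of 0.13, beside a median of -0.01 over all genes tested. Single libraries weighed on these values, and with 1 library left out Spen ranged from -0.21 to -0.04 and Maml3 from 0.29 to 0.68. Their median absolute log2 fold change was 0.13, and that of all genes tested was 0.18.

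The introduced gene was read first, as a check of the labels. Notch3 stood at 38.7, 40.6, 70.8 and 42.0 normalized counts in Control Sets 1 to 4 and at 4322, 467, 9220 and 5842 in Notch3IC Sets 1 to 4, where normalized counts are counts scaled to the mean library by edgeR's TMM factors. The ratio of Notch3IC to Control was 110-fold in Set 1, 11.4-fold in Set 2, 129-fold in Set 3 and 137-fold in Set 4. Set 2 thus had the smallest Notch3 difference of the 4.

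Rbpj binds DNA at sites with the core letters TGGGAA. On the other strand the core reads TTCCCA, and both strands were searched. Promoter windows of Maml2 and Rbpj are shown because Maml2 was the gene that passed the adjusted p and Rbpj reads those letters. Each window runs from 250 bases before to 50 bases after an annotated start in the RefSeq sequence of GRCm38.p6, on the plus strand, with matches to the core in capitals. The first Maml2 window, chr9:13297708-13298007, lies at the start of the gene, and the second, chr9:13662210-13662509, lies at a start 364503 bases further in. The Rbpj window, chr5:53590096-53590395, lies at a start 124194 bases inside the gene. All 3 starts fall in annotated exons.
Maml2, first start: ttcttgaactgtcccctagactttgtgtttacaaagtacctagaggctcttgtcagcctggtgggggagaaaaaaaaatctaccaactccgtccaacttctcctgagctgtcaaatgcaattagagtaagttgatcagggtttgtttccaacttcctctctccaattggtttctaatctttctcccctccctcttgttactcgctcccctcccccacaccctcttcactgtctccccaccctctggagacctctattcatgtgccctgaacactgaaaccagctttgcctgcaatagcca
Maml2, second start: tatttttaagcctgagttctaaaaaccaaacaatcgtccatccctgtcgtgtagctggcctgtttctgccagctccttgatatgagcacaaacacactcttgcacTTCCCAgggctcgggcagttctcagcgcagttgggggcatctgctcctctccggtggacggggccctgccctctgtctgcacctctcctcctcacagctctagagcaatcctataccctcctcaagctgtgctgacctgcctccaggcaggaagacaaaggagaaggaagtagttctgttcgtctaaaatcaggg
Rbpj: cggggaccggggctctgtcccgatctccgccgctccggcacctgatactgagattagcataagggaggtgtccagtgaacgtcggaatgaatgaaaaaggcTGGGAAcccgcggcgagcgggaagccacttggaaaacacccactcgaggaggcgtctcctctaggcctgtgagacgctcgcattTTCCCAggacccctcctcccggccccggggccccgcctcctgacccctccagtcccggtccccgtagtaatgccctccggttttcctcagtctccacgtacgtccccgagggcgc
The first Maml2 window held no match, the second held 1 at -145 from the start, and the Rbpj window held 2, at -149 and -65. Over all windows available for these genes, 12 windows for 8 genes, 5 held the core on either strand. A second Rbpj window, at chr5:53590236-53590535, overlaps the one shown and counts the same TTCCCA again. Of all 32851 promoter windows of this length, 8397 held it (25.6%). A match of 6 letters is a description of the sequence and not a binding site.

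Rbpj itself, the DNA-binding subunit (GRCm38 chromosome 5, 53466152 to 53657362, plus strand), had 1343, 1095, 1219 and 1237 normalized counts in Control Sets 1 to 4. The Notch3IC libraries held 1513, 1062, 1475 and 1286. The groups overlapped, since Notch3IC Set 2 was lower than all 4 Controls. The log2 fold change was 0.13 (SE 0.13, 95% interval -0.16 to 0.41, adjusted p = 0.667), so the interval on the linear scale ran from 0.893-fold to 1.33-fold. Of the 100-base windows of Rbpj transcripts, 8.14% also occurred in the pseudogene Rbpj-ps3, so its count is uncertain where the counting could split such reads. This is a share of windows and not of reads, and the size of the uncertainty was not measured.

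The 3 Mastermind-like genes code for the coactivators that dock on the Rbpj and Notch complex, and Maml3 and Maml2 had the largest log2 fold changes of the 9. Maml2 (GRCm38 chromosome 9, 13297957 to 13709388, plus strand) stood at 749, 797, 705 and 705 normalized counts in Control Sets 1 to 4. It stood at 1105, 809, 1027 and 1042 in Notch3IC Sets 1 to 4. No Notch3IC library was below a Control library, but the margin was set by Set 2, where 809 in Notch3IC faced 797 in Control. Within sets the ratio was 1.48 in Set 1, 1.01 in Set 2, 1.46 in Set 3 and 1.48 in Set 4. The mean went from 739 ± 44.0 to 996 ± 129 (SD, n = 4), a log2 fold change of 0.43 (SE 0.11, 95% interval 0.17 to 0.69, edgeR adjusted p = 0.0809). Maml2 was the 1 gene of the 9 whose groups did not overlap, while 1346 of all genes tested had such groups (10.8%).

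The pass of Maml2 at an adjusted p of 0.1 did not hold for every choice of libraries. It was lost in 7 of the 8 fits that left out 1 library, with adjusted p between 0.102 and 0.237, and held without Notch3IC Set 2 (adjusted p = 0.0113). The log2 fold change stayed between 0.38 and 0.52 in those fits, and the edgeR unadjusted p between 0.00052 and 0.016. Over all genes 832 passed the adjusted p with all libraries. Only 90 to 278 did without 1 library of Set 3 or 4, and 646 to 1977 without 1 library of Set 1 or 2. Leaving out a whole set gave an adjusted p of 0.0172 without Set 2 and 0.145 to 0.576 without Set 1, 3 or 4. Over all genes 964, 1594, 1 and 0 passed without Sets 1, 2, 3 and 4 in turn. Set 2 was thus the set with the smallest Maml2 ratio and also the set with the smallest Notch3 ratio, and with 4 sets no relation between them was tested.

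Maml3, the least abundant of the 3, (GRCm38 chromosome 3, 51685907 to 52105076, minus strand) had 175, 209, 94.8 and 96.7 normalized counts in Control Sets 1 to 4. Notch3IC Sets 1 to 4 had 179, 192, 175 and 238. The Notch3IC values were close together, and the Controls of Sets 3 and 4 were lower than those of Sets 1 and 2. The within-set ratio was therefore 1.02 and 0.919 in Sets 1 and 2 but 1.84 and 2.46 in Sets 3 and 4. Across the groups the log2 fold change of 0.45 (SE 0.29, 95% interval -0.20 to 1.10, adjusted p = 0.458) did not pass. Whether the sets differed cannot be tested with 1 library of each group in a set.

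Maml1, the most abundant of the 3, (GRCm38 chromosome 11, 50255634 to 50292311, minus strand) had 2485, 2589, 2324 and 2076 normalized counts in Control Sets 1 to 4 and 2514, 2391, 2865 and 2702 in Notch3IC. The groups overlapped, with Notch3IC Set 2 below its own Control and Sets 3 and 4 above theirs. The log2 fold change was 0.14 (SE 0.10, 95% interval -0.08 to 0.37, adjusted p = 0.494).

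**Figure D1:**
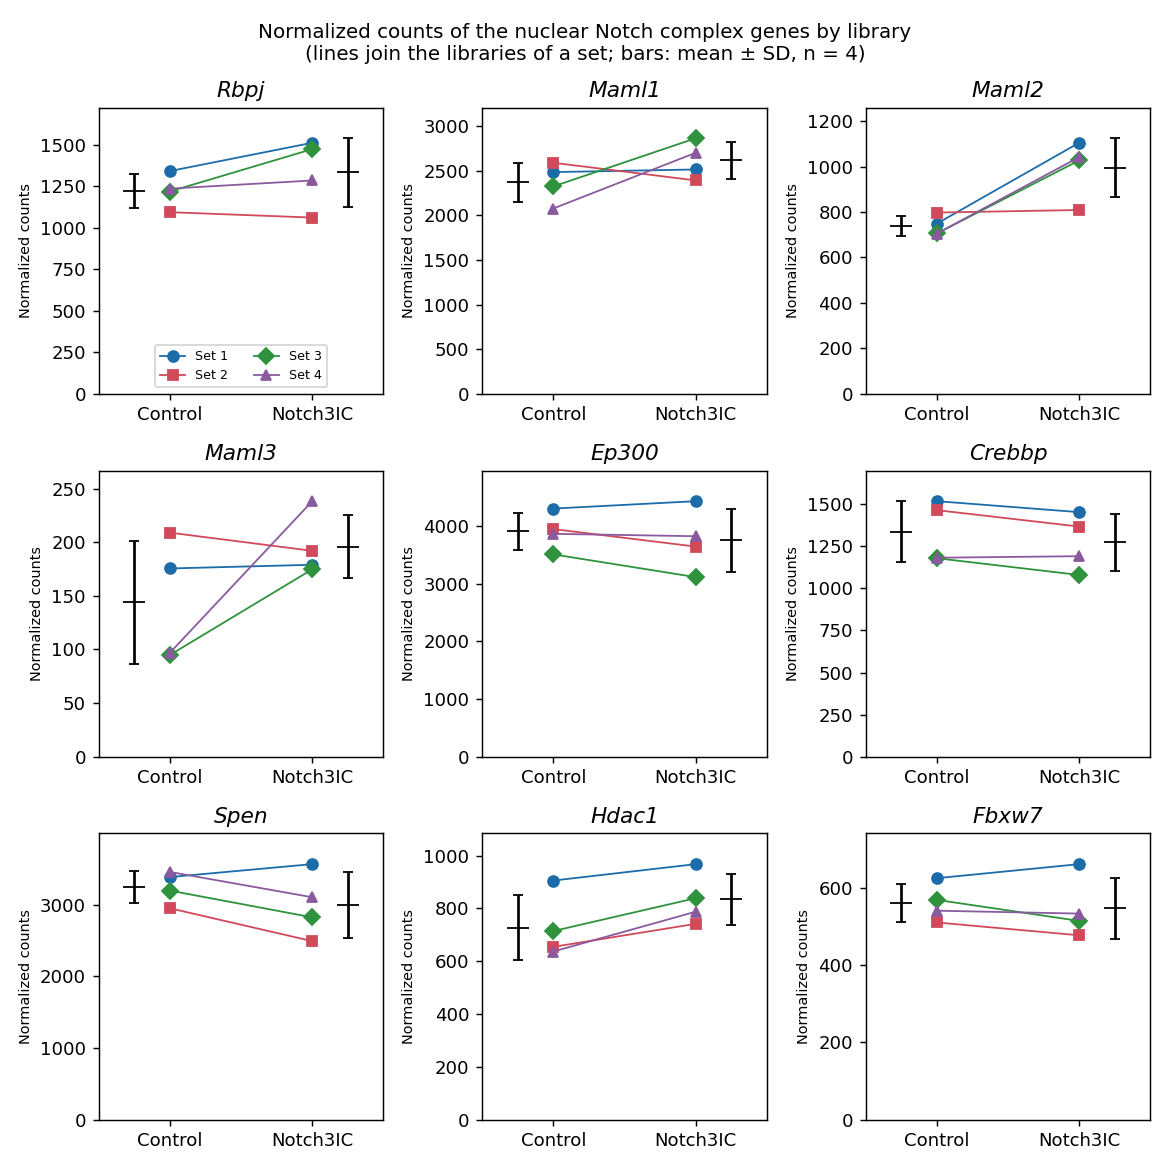
Normalized counts of the 9 genes in each Control and Notch3IC library, with lines joining the 2 libraries of a set and bars for the group mean and SD (n = 4). Maml2 is the gene whose groups do not overlap, with Control at 705 to 797 and Notch3IC at 809 to 1105.

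Ep300 and Crebbp, the paired acetyltransferases recruited through Mastermind, had similar values in both groups. Ep300 (GRCm38 chromosome 15, 81585351 to 81652077, plus strand) had 4298, 3943, 3505 and 3861 normalized counts in Control Sets 1 to 4 and 4427, 3640, 3111 and 3819 in Notch3IC. Crebbp (GRCm38 chromosome 16, 4081328 to 4213997, minus strand) had 1518, 1465, 1179 and 1182 in Control and 1453, 1367, 1080 and 1191 in Notch3IC. In both genes the groups overlapped over most of their range and the within-set log2 ratios ran from -0.17 to 0.04. Ep300 differed by a log2 fold change of -0.06 (SE 0.12, 95% interval -0.33 to 0.22, adjusted p = 0.856), and Crebbp by -0.07 (SE 0.13, 95% interval -0.37 to 0.23, adjusted p = 0.837). On the linear scale these intervals ran from 0.794-fold to 1.16-fold for Ep300 and from 0.773-fold to 1.17-fold for Crebbp.

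On the repressor side, Spen, which bridges Rbpj to corepressor complexes, (GRCm38 chromosome 4, 141467890 to 141538597, minus strand) had 3387, 2952, 3199 and 3459 normalized counts in Control Sets 1 to 4 and 3568, 2492, 2825 and 3106 in Notch3IC. It was lower in Sets 2, 3 and 4 and higher in Set 1, and the groups overlapped. The log2 fold change was -0.12 (SE 0.12, 95% interval -0.39 to 0.16, adjusted p = 0.675).

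Hdac1, a histone deacetylase of the same corepressor complexes, (GRCm38 chromosome 4, 129516104 to 129542713, minus strand) had 905, 654, 714 and 637 normalized counts in Control Sets 1 to 4. The Notch3IC libraries had 967, 741, 839 and 787. The groups overlapped because Set 1 was high in both, yet Notch3IC exceeded its own Control in 4 of 4 sets, with log2 ratios of 0.10, 0.18, 0.23 and 0.31. Between groups the log2 fold change of 0.20 (SE 0.14, 95% interval -0.12 to 0.52, adjusted p = 0.513) did not pass. In the fit that took the set as a block the estimate was again 0.20 on the log2 scale (SE 0.07, adjusted p = 0.0961), and Hdac1 rose in that fit. The blocked pass was lost when Set 1, 3 or 4 was left out (adjusted p between 0.156 and 0.365) and held without Set 2 (adjusted p = 0.0804). Of the 100-base windows of Hdac1 transcripts 24.9% (907 of 3636) occurred in transcripts of other genes, mostly the pseudogene Gm10093, so its count is uncertain where the counting could split such reads.

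Fbxw7, which marks the Notch intracellular domain for degradation, (GRCm38 chromosome 3, 84815268 to 84979198, plus strand) had 626, 511, 569 and 541 normalized counts in Control Sets 1 to 4 and 662, 478, 515 and 534 in Notch3IC. The groups overlapped, with Set 1 higher and the other sets lower in Notch3IC. The log2 fold change was -0.04 (SE 0.13, 95% interval -0.33 to 0.25, adjusted p = 0.914).

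**Figure D2:**
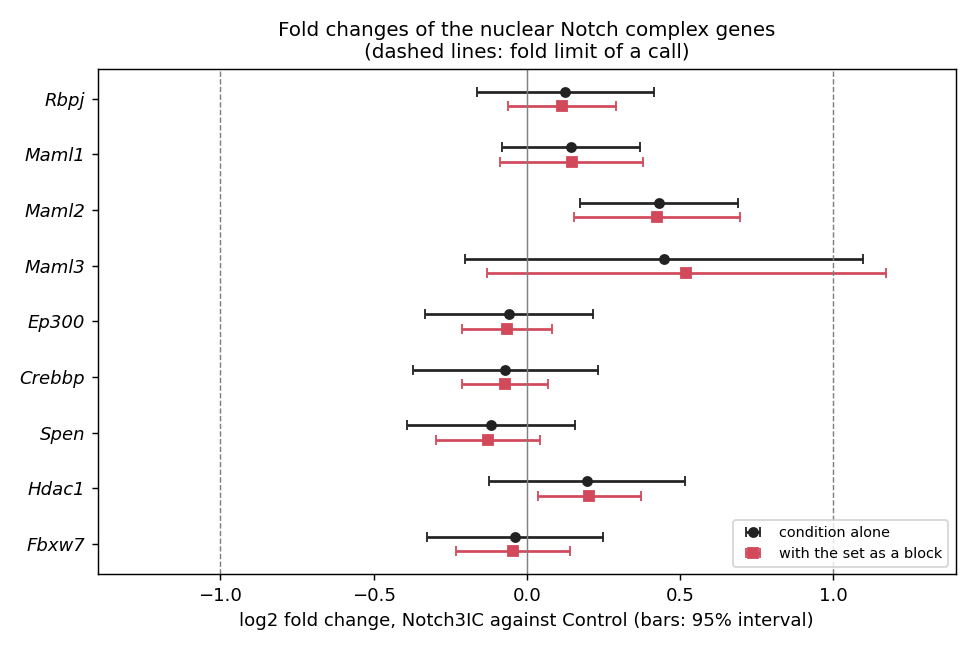
Log2 fold change of Notch3IC against Control with its 95% interval for the 9 genes, from edgeR with condition only and with the set as a block, and dashed lines at the fold limit of a call. The interval of Maml2 (0.17 to 0.69) lies above 0 in the condition-only fit, and the other 8 intervals in that fit include 0.

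Taking the set as a block moved the share of genes passing the adjusted p from 6.69% to 27.1% (3367 genes). The biological coefficient of variation was 26.3% with condition only, and 14.1% was left once set differences were fitted. Of the 9 genes 2 passed in the blocked fit (22.2%), namely Maml2 (log2 fold change 0.43, adjusted p = 0.0571) and Hdac1. The blocked pass of Maml2 was lost without Set 1, 3 or 4 (adjusted p between 0.189 and 0.224), and over all genes the blocked fits without those sets passed 84, 87 and 226. With the fold limit kept, 960 genes were called in the blocked fit (7.72%) and none of the 9 was among them. When Set 2 was left out of the blocked fit 5643 of all genes tested passed the adjusted p (45.2%), and 4 of the 9 did, a share near that background. They were Maml1 at a log2 fold change of 0.23 (adjusted p = 0.0811), Maml2 at 0.56 (0.00270), Maml3 at 0.74 (0.0761) and Hdac1 at 0.21 (0.0804). None of the 9 passed in the blocked fits without Set 1, 3 or 4.

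Set by set, Notch3IC was the higher library for 8 of the 9 genes in Set 1, 2 in Set 2, 5 in Set 3 and 6 in Set 4. Maml2 and Hdac1 were higher in all 4 sets, 2 of the 9 (22.2%), and 2607 of all genes tested were (21.0%). None of the 9 was lower in all 4 sets, and 2409 of all genes tested were (19.4%). The median absolute log2 ratio of the 9 genes was 0.07, 0.11, 0.23 and 0.16 in Sets 1 to 4, beside 0.25, 0.11, 0.25 and 0.25 over all genes tested.

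**Figure D3:**
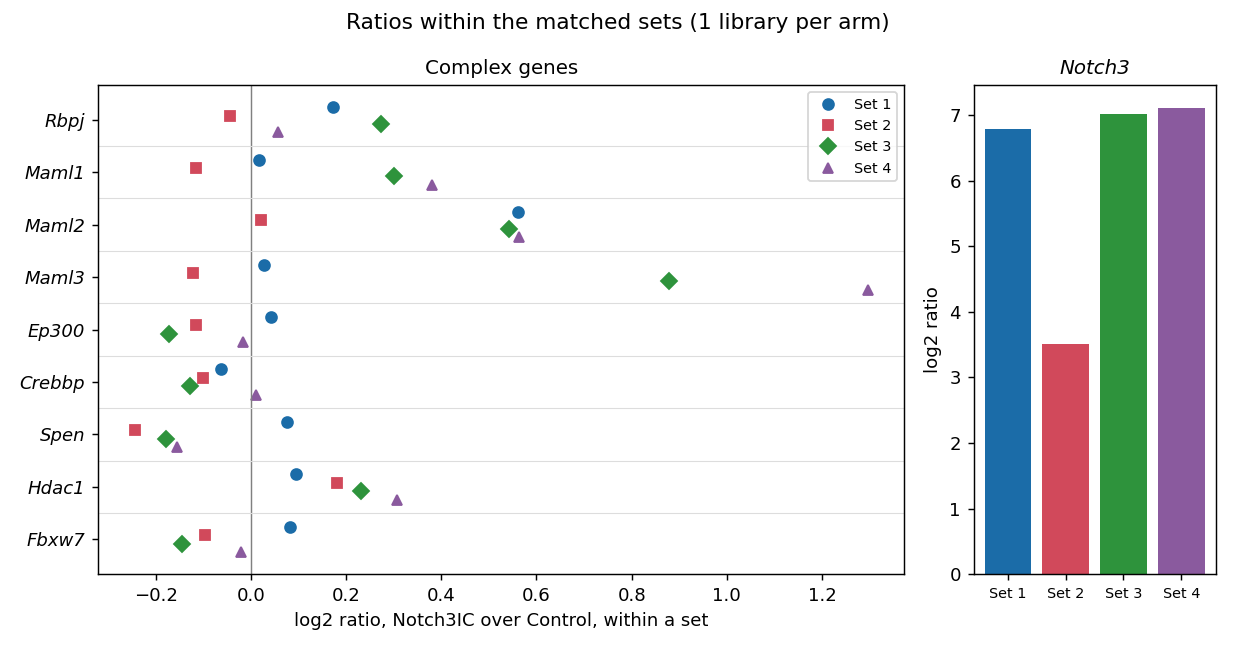
Log2 ratio of Notch3IC to Control within each of the 4 sets for the 9 genes (left) and for Notch3 (bars, right). Maml3 spreads from -0.12 in Set 2 to 1.30 in Set 4, and Maml2 sits at 0.54 to 0.56 in Sets 1, 3 and 4 and at 0.02 in Set 2, where the Notch3 bar is shortest (3.51).

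To compare levels between genes, normalized counts were divided by the kilobases of merged exons in the GENCODE M21 annotation of GRCm38. On this per-kilobase scale Maml1 was the most abundant of the 9 in Control, at 428 ± 40.4 (SD, n = 4), followed by Ep300 at 273 ± 22.8, Spen at 231 ± 16.1 and Hdac1 at 211 ± 35.7. The next were Maml2 at 112 ± 6.67, Crebbp at 98.7 ± 13.3, Rbpj at 95.9 ± 7.97 and Fbxw7 at 79.7 ± 6.92, and Maml3 was last at 13.7 ± 5.47. Spen and Hdac1 lay within their spread of each other, as did Maml2 and Crebbp, and Crebbp and Rbpj, whereas every Control library had more Maml2 than any had Rbpj on this scale (at least 107 against at most 105). That margin is narrow, and 8.14% of the 100-base windows of Rbpj also occur in Rbpj-ps3, so the order of Maml2 and Rbpj is uncertain. For Hdac1 24.9% of the windows occur in transcripts of other genes, so its place is uncertain too. Merged exons cover all annotated transcripts of a gene, and which of these were expressed was not measured. Among the 11227 tested genes with an exon length Maml1 stood at the 73.8 percentile of this level and Maml3 at the 11.9 percentile, with Rbpj at 35.4.

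Of the summed per-kilobase level of the 3 Mastermind-like genes, Maml1 took 77.3 ± 0.859%, Maml2 20.3 ± 0.984% and Maml3 2.43 ± 0.770% in Control. In Notch3IC the shares were 73.7 ± 1.99%, 23.4 ± 2.05% and 2.92 ± 0.454%. The Maml2 share was 19.6% to 21.7% in the Controls and 21.4% to 26.2% in Notch3IC, so the groups overlapped at the edge, while in each of the 4 sets Notch3IC exceeded its own Control. The Maml1 share was lower in Notch3IC in 4 of 4 sets and did not overlap, at 76.4% to 78.4% in the Controls and 71.1% to 75.4% in Notch3IC. These shares carry no test. Maml1 transcripts thus made up most of the family's level in both groups.

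**Figure D4:**
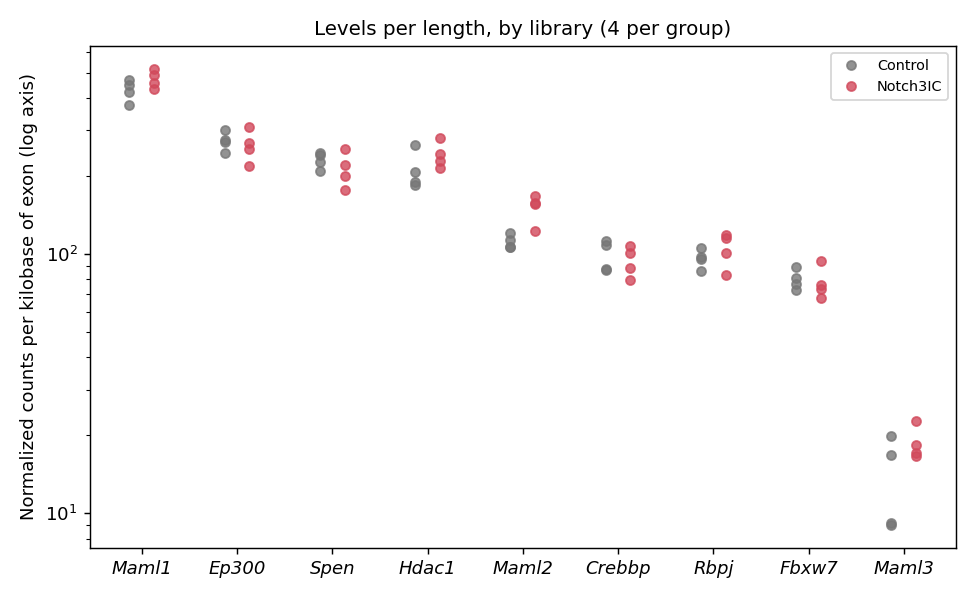
Normalized counts per kilobase of exon for the 9 genes in Control and Notch3IC, on a log axis, with 1 point for each library. Maml1 is highest (mean 428 in Control, 474 in Notch3IC) and Maml3 lowest (13.7 and 18.7).

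The genes whose pattern over the 8 libraries was most like that of a member were found by the root mean square difference of mean-centred log2 normalized counts, over 10213 genes with at least 50 counts in every library. For Maml2 they were Dock1 at a distance of 0.0520, Cald1 at 0.0563 and Sepn1 at 0.0628, with log2 fold changes of 0.35, 0.46 and 0.46. For Rbpj they were Nfya at 0.0547, Dck at 0.0563 and Cttnbp2nl at 0.0567. For Maml3 they were Anpep at 0.0902, Hspa12b at 0.179 and Myo10 at 0.204. In all 3 the Controls of Sets 3 and 4 were lower than those of Sets 1 and 2, which follows from choosing them for likeness to Maml3. These distances rest on 8 libraries that share depth and set, and describe likeness only.

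Among other genes of the nuclear pathway, the coactivator list (among them acetyltransferases, Mediator subunits, a histone ubiquitin ligase pair and Snw1) had 13 genes tested, of which 0 were called and 0 passed the adjusted p in edgeR with condition only or in DESeq2 (1 and 2 at an unadjusted p under 0.05, against 18.4% and 16.5% of all genes). In edgeR their median log2 fold change was 0.03. The extremes were Cdk8, the Mediator kinase that phosphorylates the Notch intracellular domain, at -0.33 (adjusted p = 0.520) and Med13l, a subunit of the same kinase module, at 0.39 (adjusted p = 0.181). With the set as a block 3 of the 13 passed, where 27.1% of all genes tested did, with Cdk8 (adjusted p = 0.0438) and Rnf40 (0.0948) lower and Med13l (0.0612) higher. None of these 3 passed in the blocked fits without Set 1, 3 or 4.

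In edgeR with condition only the corepressor list had 23 genes tested and 0 called (7 at an unadjusted p under 0.05, against 18.4% of all genes tested), and 2 passed the adjusted p, both lower, where 6.69% of all genes tested passed. The list median was 0.10. DESeq2 called 2 of them higher (Tle2 and Bend6), where it called 707 higher and 192 lower of 17359 genes. Without the fold limit it passed 4 as higher and 3 as lower, where 12.9% of all genes with a DESeq2 adjusted p passed. Tbl1x, a subunit of the NCoR and SMRT corepressor complexes, stood at 3164, 3260, 3365 and 3216 normalized counts in Control Sets 1 to 4 and at 2575, 2737, 2568 and 2411 in Notch3IC. Every Notch3IC value lay below every Control value, and Tbl1x fell by a log2 fold change of -0.34 (SE 0.07, adjusted p = 0.0468). Tle3, a Groucho-family corepressor, stood at 3422, 3799, 4295 and 3890 in Control and at 2316, 3322, 2465 and 2449 in Notch3IC. Its groups did not overlap either, and it fell by a log2 fold change of -0.55 (SE 0.13, adjusted p = 0.0631). Of the 23 corepressors 3 had groups that did not overlap, where 10.8% of all genes tested did. With 1 library left out Tbl1x no longer passed in 4 of 8 fits (without either library of Set 3 or 4) and Tle3 in 6 of 8 (without those, Notch3IC Set 1 or Control Set 2), with adjusted p of up to 0.176 and 0.210. With 1 set left out each no longer passed in 2 of 4 edgeR fits with condition only (adjusted p of up to 0.472 for Tbl1x and 0.511 for Tle3). Over all genes 90 to 278 passed without 1 library of Set 3 or 4, and 1 and 0 without the whole of Set 3 and of Set 4.

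Another Groucho-family gene, Tle2, had the largest fold change of the corepressor list. It stood at 25.8, 201, 75.6 and 95.1 normalized counts in Control Sets 1 to 4 and at 69.3, 341, 408 and 681 in Notch3IC. The groups overlapped, though Notch3IC was higher in 4 of 4 sets, and the log2 fold change of 1.93 (SE 0.73, adjusted p = 0.201) did not pass in edgeR with condition only. It passed with the set as a block (adjusted p = 0.0380) and in DESeq2 (adjusted p = 0.0464). Bend6, a BEN-domain corepressor of Rbpj, had a log2 fold change of 1.19 (SE 0.35, adjusted p = 0.110) and likewise passed with the block (adjusted p = 0.0277) and in DESeq2 (adjusted p = 0.0158), and under upper-quartile scaling (0.0958) and library totals (0.0957). Over the corepressor list the blocked fit passed 8 genes as higher and 3 as lower, 11 of 23, where 27.1% of all genes tested passed. The blocked passes of Tle2, Bend6, Tbl1x and Tle3, and of Fhl1 and Tle1 of the same list, were lost without Set 1, 3 or 4. Over all genes the blocked fits without those sets passed 84, 87 and 226.

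The list of factors that turn over the Notch intracellular domain had 5 genes tested and 0 called or past the adjusted p (edgeR with condition only and DESeq2, 0 at an unadjusted p under 0.05), with a median log2 fold change of -0.02. The list of paralogues of the 9 genes, which did not hold Hdac2 and Hdac3 of the corepressor list, had 4 genes tested. Of these 0 were called, past the adjusted p or at an unadjusted p under 0.05 by edgeR with condition only or by DESeq2. Rbpjl, the paralogue of Rbpj, had at most 1 count in any library and was not tested. Beside these, 4 of 5 direct target genes tested were called higher, with Hey1 going from 35.2 ± 15.3 to 5793 ± 4474 normalized counts (SD, n = 4), while Hes1 at a log2 fold change of 0.58 (adjusted p = 0.388) was not called. With the set as a block Hes1 passed the adjusted p at 0.51 (0.0635), with Notch3IC above its Control in 4 of 4 sets, and no longer did without Set 1, 3 or 4. The calls of Hey1, Heyl, Hey2 and Nrarp held with any 1 library left out, were lost in the condition-only fits without Set 3 or without Set 4 (adjusted p between 0.215 and 0.229), and held in every blocked fit with a set left out. Over all genes 1 and 0 passed in the condition-only fits without Set 3 and without Set 4.

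**Figure D5:**
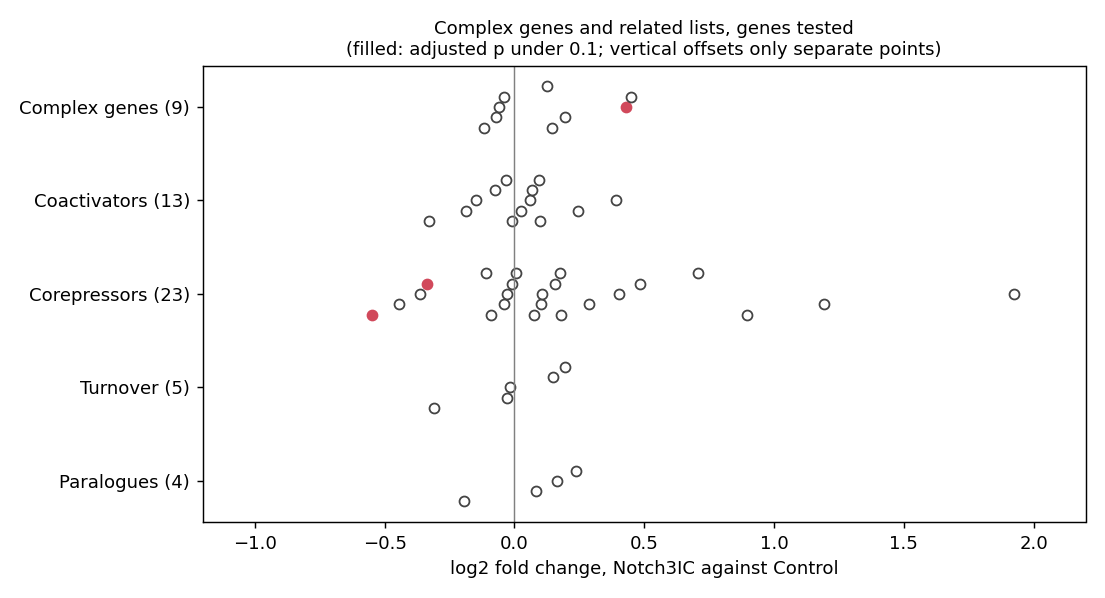
Log2 fold change of each tested gene in the lists of coactivators, corepressors, turnover factors and paralogues, with the 9 complex genes in the top line and filled points for an adjusted p under 0.1. Tle2 is the farthest from 0, at 1.93, and the genes that passed the adjusted p are Maml2 (0.43), Tbl1x (-0.34) and Tle3 (-0.55).

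Of the markers of the labelled cell type, 1 passed the test in the main comparison. Of 9 genes listed for ovarian surface epithelium and mesothelium 7 were tested, and Msln, a mesothelial surface protein, was called lower in edgeR with condition only (2349 ± 1152 to 389 ± 290 normalized counts, log2 fold change -2.60, adjusted p = 0.0625). In that fit Msln was the 1 gene of the list called, while 4 of the 7 had an unadjusted p under 0.05, against 18.4% of all genes tested. All 7 log2 fold changes were below 0, with a median of -0.80. DESeq2 and the blocked fit each called 3, Msln, the keratin Krt19 (blocked log2 fold change -2.10, adjusted p = 0.0288) and the uroplakin Upk3b (-1.98, 0.0319). Of all genes tested the blocked fit called 960 (7.72%), and DESeq2 called 707 higher and 192 lower of 17359. Without the fold limit the blocked fit passed 6 of the 7 as lower, where 27.1% of all genes tested passed. The blocked results of Msln, Krt19 and Upk3b no longer passed without Set 1, 3 or 4, and Cdh1 passed in neither edgeR fit nor in DESeq2. The call of Msln was lost in 4 of 8 edgeR fits with 1 library left out, those without either library of Set 3 or 4 (adjusted p up to 0.195). In those fits 90 to 278 of all genes tested passed the adjusted p. Summed over the list, of which Upk3b was the most abundant, Control Sets 1 to 4 had 21549, 39851, 63229 and 61529 normalized counts and Notch3IC had 7041, 25617, 24078 and 18360. Epcam had at most 12 counts and Krt7 at most 46 in any library. The part of these differences in the results above was not tested, and in bulk libraries fewer cells of a type and less RNA per cell cannot be told apart. Leukocyte markers were near 0, with Cd3e and Adgre1 at 0 counts in every library, Ptprc at 0 in every Control, and a list sum of 42.5 to 120 normalized counts, mostly Cd68. Endothelial markers summed to 11.1 to 49.2, with Cdh5 at no more than 2 counts.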

How the data were processed

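RNA-seq of 4 Control and 4 Notch3IC lines was deposited as raw counts per gene symbol, which the authors made from poly-A libraries; their processing notes name mm9, TopHat, Cufflinks and DESeq. Whether the counting used strand is not given in the sources used here. No column of the authors' own comparisons was used. The files were joined by symbol, and 12430 genes passed filterByExpr. Fits used R 4.3.3 and edgeR 4.0.16 (TMM, robust quasi-likelihood, Benjamini-Hochberg adjustment over all tested genes), with condition only as the main design and DESeq2 1.42.0 as an alternative. SE was the absolute log2 fold change divided by the square root of F. Within-set ratios used a pseudocount of 0.5. Of the fits, only edgeR with condition only was tested on simulated data, which had a common dispersion for all genes and no set effect. The sets are matched infections, and same-set deviations from the group means correlated at 0.79, 0.41, 0.57 and 0.43 (pairs from different sets, -0.51 to 0.40), so a fit with the set as a block was also made. Exons and loci came from GENCODE M21 on GRCm38, another build than that of the files. The 9 genes, the lists and the alternatives were chosen with earlier results of these data known. The 9 genes were all named, and other genes were named for the extremes of their list, passing the adjusted p, or the nearest patterns. Of 24 listed corepressors Kmt2d was not matched. Single values of some listed genes are not reported here.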

Additional observations from a re-analysis of the deposited data

Results flagged for a closer look

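Among 20 groups of 4 libraries searched for a library far from the others (the 9 genes and Notch3 in both groups), 1 stood out, where chance gives about 1. Notch3 in Control Set 3 was at 70.8 normalized counts, and the other Controls were at 38.7 to 42.0. Both are far below the lowest Notch3IC library at 467.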

How the results depend on the processing

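edgeR with condition only called 423 genes higher and 92 lower. DESeq2 called 707 and 192, the replicate block 645 and 315, an adjusted p threshold of 0.05 left 48 lower, and no fold limit gave 210 lower. Leaving out 1 library gave 75 to 702 higher and 8 to 305 lower. Without Set 1 151 were lower, without Set 2 670 were higher and 229 lower, without Set 3 1 and 0, and without Set 4 0 and 0 (edgeR, 1101 and 1011 genes at an unadjusted p under 0.05 without Sets 3 and 4). Members called went from 0 to 1 with no fold limit (Maml2) and to 2 with the replicate block and no fold limit (Maml2 and Hdac1), the latter chosen after seeing the data, and stayed at 0 in the other settings. The block changed no other call among the 9 genes. Of the fold changes of the 9 genes, 3 near 0 turned sign with 1 library left out, namely Ep300 (-0.14 to 0.022), Crebbp (-0.14 to 0.0012) and Fbxw7 (-0.14 to 0.019). Rbpj (0.06 to 0.22), Maml1 (0.08 to 0.19) and Hdac1 (0.12 to 0.32) kept their sign. The scaling and filter alternatives turned none, and the cause of the changes was not tested. The annotation is of another build than the counts, and with 4 libraries per group an interval as wide as that of Maml3 does not exclude a change past the fold limit.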
